A study of Mus musculus with 6 samples.

Results

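The genes described here encode the ephrin, Slit, netrin and repulsive guidance molecule (RGM) cues and their receptors, 36 genes chosen by name from the 53700 identifiers of the expression table. They comprise 15 ligands and 21 receptors. RNA was measured in SL4, a mouse CRC cell line that carries luciferase. The pLV-Control group was not made to overexpress SEMA6A, and the pLV-SEMA6A group carries a stably introduced SEMA6A lentivirus. Each group holds 3 libraries, and the replicate numbers mark samples whose origin in separate cultures is not given in the sources used here, so p-values measure only the spread between these libraries. No independently made pLV-SEMA6A lines are described, and the control is called both SL4 and pLV-Control, so SEMA6A, the vector and a difference between lines cannot be told apart.

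Eph receptors are receptor tyrosine kinases that bind ephrins on neighbouring cells. A-class ephrins are held in the membrane by a lipid anchor and B-class ephrins span it, and signals run into the receptor cell and back into the ephrin cell. Slits are secreted proteins that act through Robo receptors, while netrins act through Dcc and neogenin, which attract growth cones, and through Unc5 receptors, which repel them. RGM proteins are further ligands of neogenin. These families were described in axon guidance, and in the intestine EphB receptors and B-class ephrins sort epithelial cells along the crypt. Semaphorins such as SEMA6A belong to the same field of guidance cues.

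Expression was given as TPM, a unit per transcript length and per library total, so levels can be set side by side between genes. TPM keeps no depth, and no detection limit could be derived. Sema6a, the targeted gene, was listed at 0 for all pLV-Control libraries and measured 98.7 to 118 TPM after its introduction. Colon epithelial markers were nearly absent: 9 of 10 stayed below 0.5 TPM in every library, Epcam, Cdx1 and Cdx2 were listed at 0, and the 10 summed to between 1.91 and 2.82 TPM in pLV-Control and between 0.53 and 1.33 TPM in pLV-SEMA6A. The 6 fibroblast markers summed to between 125 and 141 TPM in pLV-Control and between 183 and 189 TPM in pLV-SEMA6A, mostly from Col3a1, with 2 markers higher and 2 lower. Lgals4 was the epithelial marker that was expressed, and it was a lower DEG. None of the 6 was at 0 in every library. Cdh5 and Tie1 of the endothelial list, Cd3e and Adgre1 of the leukocyte list and Snap25 and Sox10 of the neural list were also listed at 0 in every library. The part of these markers in the results was not tested. In pLV-SEMA6A replicate 2, mt-Co3 was listed at 0.33 TPM against 140.6 to 450.1 TPM elsewhere. The cause of this gap was not tested, and a listed value at or near 0 may not mean that RNA was absent.

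Many of the guidance genes, most of all the receptors, were too low to be compared. A mean of at least 1 TPM over the 6 libraries was reached by 18 of the 36 genes, by 12 of the 15 ligands and by 6 of the 21 receptors. Epha2 stood far above all others, with means of 138 ± 1.80 and 154.5 ± 5.49 TPM (SD, n = 3 each) in pLV-Control and pLV-SEMA6A. The next were Slit2, Efna1, Efnb2, Neo1 and Unc5b, each with group means between 14.5 and 25.3 TPM. Just inside the limit lay Efna3 and Efnb3, with values from 0.88 to 2.14 TPM, and just outside it lay Efna2, with 0.41 to 1.20 TPM.

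**Figure D1:**
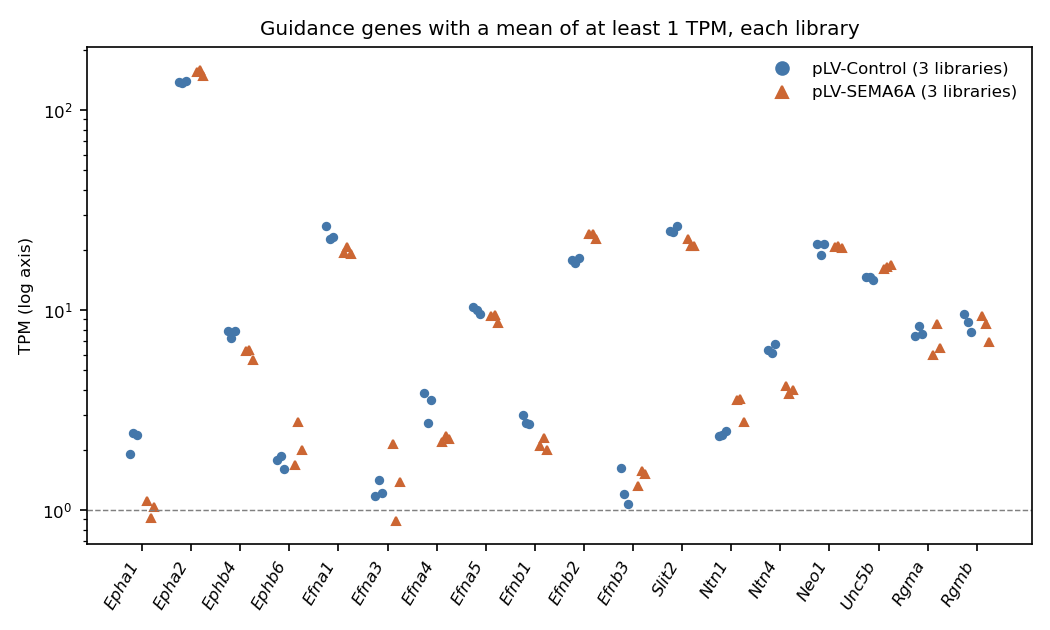
TPM on a log axis for the 18 guidance genes that averaged at least 1 TPM, with circles for the 3 pLV-Control and triangles for the 3 pLV-SEMA6A libraries and a dashed line at 1 TPM. Epha2 lies at 137 to 159 TPM. The libraries of the groups do not overlap in 12 of the 18 genes (66.7%), near the share of 58.5% over all tested genes. Among the 12, Epha1 and Ntn4 are lower in pLV-SEMA6A and Efnb2 is higher.

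Promoter windows of RefSeq genes (GRCm38.p6, 250 bases before the start and 50 after) were matched by symbol for 30 of the 36 genes, in 37 windows. The processing notes of the submitters name the build mm39, so positions given here are those of GRCm38 and were not converted. The 250 bases before the start are shown for the receptors Epha2, Epha1 and Ephb4 and the ligand Efnb2, because these genes carry the Eph and ephrin results below. They lie at chr4:141300971-141301220 (plus strand), chr6:42373269-42373518 (minus strand), chr5:137349859-137350108 (plus strand) and chr8:8661243-8661492 (minus strand), outside the annotated genes. Capitals mark the GC box GGGCGG on either strand.
Epha2: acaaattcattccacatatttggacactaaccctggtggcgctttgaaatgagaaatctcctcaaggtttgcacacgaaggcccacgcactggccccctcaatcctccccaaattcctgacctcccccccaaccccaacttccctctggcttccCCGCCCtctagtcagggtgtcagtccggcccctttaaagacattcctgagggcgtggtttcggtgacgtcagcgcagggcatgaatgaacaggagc
Epha1: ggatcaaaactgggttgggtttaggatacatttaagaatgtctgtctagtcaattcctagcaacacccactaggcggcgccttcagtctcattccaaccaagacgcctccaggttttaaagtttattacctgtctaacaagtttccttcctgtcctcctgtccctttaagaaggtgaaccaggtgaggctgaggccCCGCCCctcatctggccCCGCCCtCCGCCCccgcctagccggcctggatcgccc
Ephb4: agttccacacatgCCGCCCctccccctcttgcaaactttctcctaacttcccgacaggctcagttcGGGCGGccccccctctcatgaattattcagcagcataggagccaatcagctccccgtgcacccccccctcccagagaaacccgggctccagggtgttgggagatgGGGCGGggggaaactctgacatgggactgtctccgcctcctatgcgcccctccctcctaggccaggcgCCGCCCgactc
Efnb2: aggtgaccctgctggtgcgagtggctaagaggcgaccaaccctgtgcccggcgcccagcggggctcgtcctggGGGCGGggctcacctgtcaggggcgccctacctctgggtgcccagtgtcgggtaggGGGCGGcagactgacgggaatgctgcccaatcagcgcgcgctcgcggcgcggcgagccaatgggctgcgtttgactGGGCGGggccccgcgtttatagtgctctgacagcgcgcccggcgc

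The Epha2 promoter holds 1 GC box and 9 CpG sites, and that of Epha1 3 GC boxes and 9 CpG sites. The Ephb4 window holds 4 GC boxes and 12 CpG sites, and the Efnb2 window 3 GC boxes and 27 CpG sites. Over all members, 25 of 37 windows hold a GC box (67.6%), compared with 32.7% of all 32851 promoter windows. The members' windows are also richer in GC, with a median GC content of 65.6% against 52.4% for all promoter windows. Their median number of CpG sites is 18 against 6. The part of base composition in the share of GC boxes was not tested. A GC box was in 16 of 19 windows (15 genes) of the members with a mean of at least 1 TPM. Among the lower members it was in 9 of 18 windows (15 genes), with median GC contents of 64.8% and 65.6%. Some genes, such as Rgmb and Robo2, have more than 1 window, so these are not counts of genes. A match describes these letters only.

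The comparison of pLV-SEMA6A with pLV-Control asked which guidance genes changed with SEMA6A. It was made on log2(TPM + 1), a scale that understates the change of low genes, with limma over the 12510 genes that reached this limit. A gene rose or fell where the Benjamini-Hochberg adjusted p over all of them was under 0.05, and was a DEG where its absolute log2 fold change was also over 0.5. All log2 fold changes and adjusted p-values below are from limma. An exact permutation test of 3 libraries against 3 (two-sided) cannot go below p = 0.1. Changes in bulk RNA do not tell fewer cells of a type from less RNA per cell.

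Of the 18 tested guidance genes, 3 rose and 6 fell, where 19.5% of all tested genes rose and 28.2% fell. DEGs were Epha1 and Ntn4, both lower, where 10.8% of all tested genes were lower DEGs. None was a higher DEG by limma, where 5.12% of all tested genes were. Also at an unadjusted p under 0.05, none of them was higher by more than 0.5. After quantile normalization the DEGs were instead Epha1, lower, and Ntn1, higher. The libraries of the groups did not overlap in 12 of the 18 genes (66.7%), and this share was 58.5% over all tested genes. The median log2 fold change was −0.10 over the 18 genes and −0.064 over all genes. These shares lie near those of all genes, so the set as a whole did not stand apart from them in these counts. Centring each library on its median raised log2 fold changes by 0.0932, and over all genes it moved the split of DEGs from 640 higher and 1347 lower to 1002 higher and 961 lower.

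**Figure D2:**
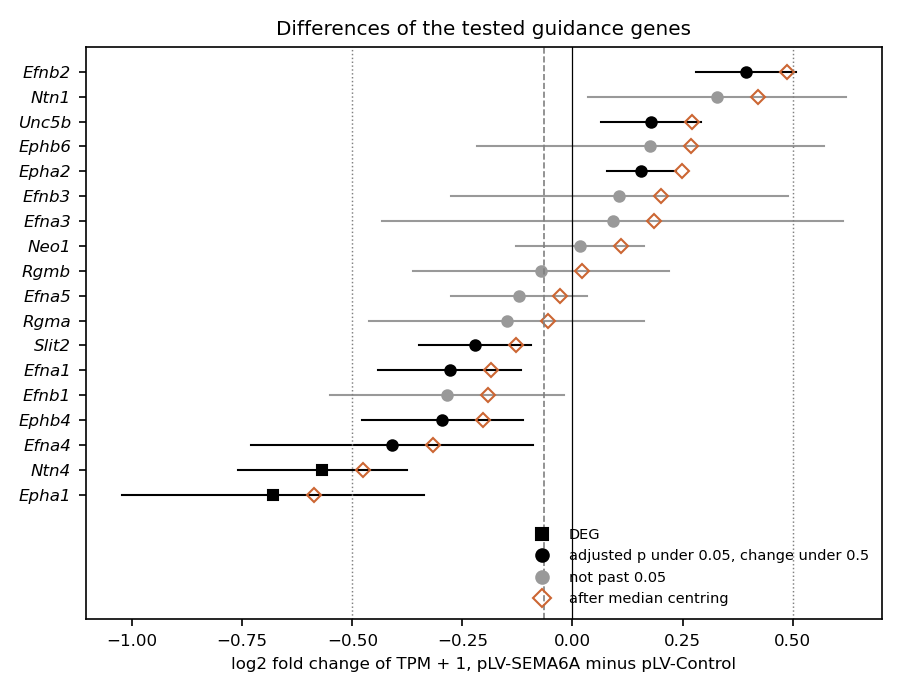
log2 fold change of TPM + 1 (pLV-SEMA6A minus pLV-Control) with its 95% interval for the 18 tested guidance genes, as squares for DEGs and circles for the others, black where the adjusted p was under 0.05. The dashed line is the median of all genes (−0.064), the dotted lines are at ±0.5, and open diamonds give the value after median centring, which for Ntn4 (−0.47) lies inside the dotted lines.

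Among the A-class Eph receptors Epha1 fell and Epha2 rose. Epha1, the founding member of the family, measured 1.92, 2.43 and 2.38 TPM in the pLV-Control replicates against 1.11, 0.91 and 1.04 TPM in pLV-SEMA6A. All pLV-SEMA6A libraries lay below all pLV-Control libraries, and the ratio of the means was 0.455. The log2 fold change was −0.68 (standard error, SE, 0.14, adjusted p = 0.00844), and 8.41% of its 31-base stretches also occur in other genes, mainly 2010010A06Rik. Its level is low, with a mean in pLV-SEMA6A of 1.02 ± 0.10 TPM (SD, n = 3).

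Epha2, a receptor often abundant in carcinoma cells, measured 138, 137 and 140.4 TPM in the pLV-Control replicates against 155, 159 and 149 TPM in pLV-SEMA6A. The groups did not overlap, but the ratio of the means was only 1.12, a log2 fold change of 0.16 (SE 0.03, adjusted p = 0.00851). Because of its level, Epha2 made up 91.6% to 91.9% of the summed TPM of the 11 Eph receptor genes in pLV-Control and 93.4% to 93.8% in pLV-SEMA6A. The remaining A-class receptors Epha3, Epha4, Epha5 and Epha7 were low, with no library above 0.45 TPM, and Epha4 was listed at 0 throughout.

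Of the B-class receptors, Ephb4 fell. This receptor of ephrin-B2, known from the parting of arteries and veins, measured 7.89, 7.30 and 7.85 TPM in the pLV-Control replicates against 6.27, 6.33 and 5.63 TPM in pLV-SEMA6A. Every pLV-SEMA6A library was below every pLV-Control library, with a log2 fold change of −0.30 (SE 0.08, adjusted p = 0.0187). The adjusted p passed 0.05 in 6 of 13 alternative fits, and without pLV-Control replicate 1 it was 0.0611, without pLV-Control replicate 3 0.0599 and without pLV-SEMA6A replicate 3 0.0529. Ephb6, a family member without kinase activity, ranged from 1.60 to 1.87 TPM in pLV-Control and from 1.68 to 2.75 TPM in pLV-SEMA6A. These ranges overlap, and the 95% interval of the log2 fold change was −0.22 to 0.57.

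Ephb2 and Ephb3, known from intestinal crypts, were both low. Ephb2 measured 0.24, 0.10 and 0.09 TPM in the pLV-Control replicates against 0.71, 0.62 and 0.67 TPM in pLV-SEMA6A, groups that do not overlap. It was below the limit for the test. With no filter on low values it was a higher DEG, with a log2 fold change of 0.55 (adjusted p = 0.00401). That fit called 8.07% of 24518 genes DEGs. Ephb3 did not exceed 0.19 TPM in any library, and Ephb1 did not exceed 0.05 TPM.

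The A-class ephrins fell or did not pass the test. Efna1, a ligand of Epha2, measured 26.4, 22.8 and 23.2 TPM in the pLV-Control replicates against 19.4, 20.6 and 19.1 TPM in pLV-SEMA6A. The groups did not overlap, and the log2 fold change was −0.28 (SE 0.07, adjusted p = 0.0151). Efna1 did not pass after median centring (−0.19, adjusted p = 0.0566) or quantile normalization (−0.20, adjusted p = 0.0523). Efna4 measured 3.84, 2.72 and 3.54 TPM in the pLV-Control replicates against 2.19, 2.35 and 2.26 TPM in pLV-SEMA6A, with a log2 fold change of −0.41 (SE 0.13, adjusted p = 0.0426). Leaving out a library in turn kept its call in 1 of 6 fits, with log2 fold changes between −0.52 and −0.33, and the adjusted p was 0.122 without pLV-Control replicate 1, 0.116 without pLV-Control replicate 3, 0.102 without pLV-SEMA6A replicate 1, 0.0805 without pLV-SEMA6A replicate 2 and 0.0932 without pLV-SEMA6A replicate 3. With all libraries the call was lost after median centring (adjusted p = 0.0921), after quantile normalization (adjusted p = 0.217) and with no filter on low values (adjusted p = 0.115).

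Efna5 measured 10.38, 10.04 and 9.59 TPM in the pLV-Control replicates against 9.32, 9.42 and 8.61 TPM in pLV-SEMA6A, without overlap, and the 95% interval of its log2 fold change was −0.28 to 0.03. Efna3 lay between 0.88 and 2.14 TPM with overlapping groups. It shares 10.5% of its 31-base stretches with the gene Gm15998, and Efna4 shares 8.80% with 4731419I09Rik. Efna2, below the limit, measured 0.68, 0.50 and 0.41 TPM in the pLV-Control replicates against 0.69, 1.20 and 0.97 TPM in pLV-SEMA6A, without overlap. With no filter on low values its log2 fold change was 0.35 (adjusted p = 0.137).

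Among the B-class ephrins Efnb2 rose. This transmembrane ligand of Ephb4 measured 17.8, 17.2 and 18.15 TPM in the pLV-Control replicates against 24.2, 24.0 and 22.7 TPM in pLV-SEMA6A. The lowest pLV-SEMA6A library was above the highest pLV-Control library, with a ratio of the means of 1.33 and a log2 fold change of 0.39 (SE 0.05, adjusted p = 0.000813). It did not reach the minimum of 0.5. The adjusted p was between 0.000252 and 0.00745 over all 13 alternative fits. Efnb1 went from 2.82 ± 0.17 to 2.13 ± 0.15 TPM (SD, n = 3 each) without overlap (log2 fold change −0.28, adjusted p = 0.0755), and Efnb3 lay between 1.08 and 1.63 TPM with overlapping groups.

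For the Slit family, 1 ligand was expressed and its receptors were nearly absent. Slit2, a secreted repellent of axons and migrating cells, measured 24.8, 24.6 and 26.4 TPM in the pLV-Control replicates against 22.7, 20.85 and 21.01 TPM in pLV-SEMA6A. The groups did not overlap, with a log2 fold change of −0.22 (SE 0.05, adjusted p = 0.0143). After median centring the value was −0.13, with an adjusted p of 0.0891. Slit1 was at 0.81 TPM in pLV-Control replicate 1 and at 0.05 TPM or less in each other library, and Slit3 was listed at 0.

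The 4 Robo receptor genes together gave 0.20, 0.20 and 0.25 TPM in pLV-Control and 0.52, 0.42 and 0.44 TPM in pLV-SEMA6A. Robo1 had the highest mean among them, with 0.07 to 0.22 TPM in pLV-Control and 0.21 to 0.38 TPM in pLV-SEMA6A. In pLV-Control replicate 2, Robo2 (0.13 TPM) was above Robo1 (0.07 TPM). Robo2 did not exceed 0.19 TPM, Robo3 0.04 TPM and Robo4, the endothelial member, 0.02 TPM. Slit2 alone was thus between 106 and 124 times the Robo sum in pLV-Control and between 43.6 and 49.6 times in pLV-SEMA6A, ratios that rest on Robo values close to 0.

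**Figure D3:**
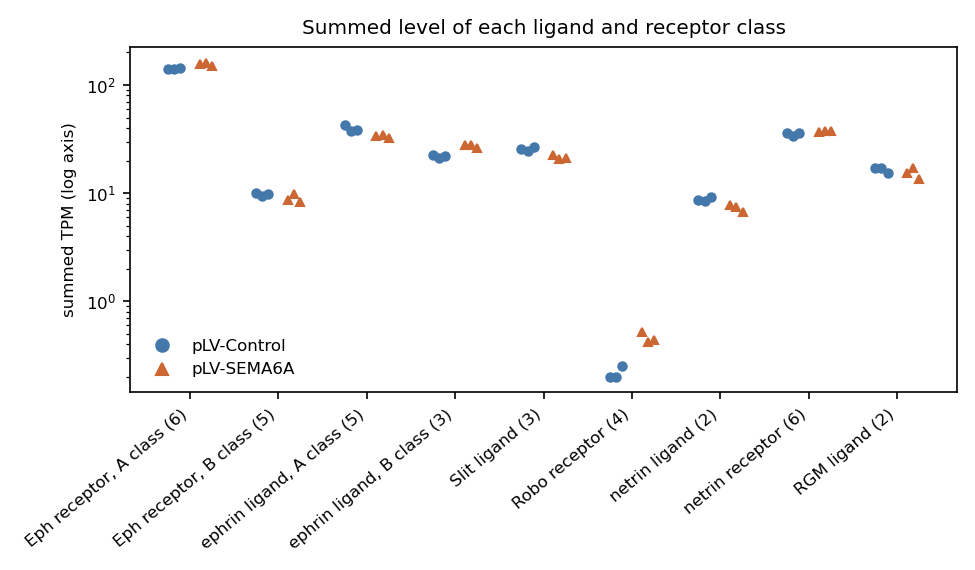
Summed TPM on a log axis for each class of ligand or receptor in each library, with the number of genes in brackets, circles for pLV-Control and triangles for pLV-SEMA6A. The A-class Eph receptors sum to 140 TPM or more, and the Robo receptors are the lowest class, at 0.20 to 0.52 TPM.

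Of the netrin ligands, Ntn4 fell and Ntn1 did not pass the test. Ntn4, a laminin-related netrin of basement membranes, measured 6.30, 6.14 and 6.76 TPM in the pLV-Control replicates against 4.16, 3.82 and 3.99 TPM in pLV-SEMA6A. Each pLV-SEMA6A library was below each pLV-Control library, and the ratio of the means was 0.623. Its log2 fold change was −0.57 (SE 0.08, adjusted p = 0.00159), and it fell in each of 13 alternative fits, with log2 fold changes between −0.67 and −0.40. It was no DEG after median centring (−0.47) or quantile normalization (−0.40).

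Ntn1, the classic netrin, measured 2.36, 2.39 and 2.48 TPM in the pLV-Control replicates against 3.56, 3.58 and 2.75 TPM in pLV-SEMA6A. All pLV-SEMA6A libraries lay above all pLV-Control libraries, with pLV-SEMA6A replicate 3 close to them. The log2 fold change was 0.33 (SE 0.12, adjusted p = 0.0665), with a 95% interval of 0.03 to 0.62. Without pLV-SEMA6A replicate 3 it was 0.42 (adjusted p = 0.0336), and after median centring 0.42 (adjusted p = 0.0271). Ntn1 was a higher DEG after quantile normalization (0.52, adjusted p = 0.0130), and limma without a trend gave an adjusted p of 0.0292.

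Of the netrin receptors, Neo1 and Unc5b were expressed. Neo1, which encodes neogenin, measured 21.3, 18.8 and 21.4 TPM in the pLV-Control replicates against 20.81, 20.99 and 20.45 TPM in pLV-SEMA6A. The groups overlapped, and the log2 fold change was 0.018 with a 95% interval of −0.13 to 0.16. Unc5b measured 14.7, 14.6 and 14.1 TPM in the pLV-Control replicates against 16.1, 16.5 and 16.9 TPM in pLV-SEMA6A. It rose without overlap, by a log2 fold change of 0.18 (SE 0.05, adjusted p = 0.0214), but passed the test in only 2 of 6 fits when libraries were left out in turn. The adjusted p was 0.0523 without pLV-Control replicate 2, 0.0670 without pLV-Control replicate 3, 0.0542 without pLV-SEMA6A replicate 2 and 0.0651 without pLV-SEMA6A replicate 3.

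Dcc, named for its deletion in CRC, measured 0.11, 0.06 and 0.12 TPM in the pLV-Control replicates against 0, 0 and 0.02 TPM in pLV-SEMA6A. The groups did not overlap, at values close to 0 and below the limit for the test. With no filter on low values the log2 fold change of Dcc was −0.12 (adjusted p = 0.0492). Unc5a did not exceed 0.09 TPM and Unc5c 0.21 TPM, and Unc5d was listed at 0. The RGM ligands of neogenin did not pass the test. Rgma measured 7.44, 8.36 and 7.61 TPM in the pLV-Control replicates against 5.96, 8.58 and 6.47 TPM in pLV-SEMA6A, where replicate 2 lay above the pLV-Control range and the other two below it. Without that replicate the log2 fold change was −0.29 (adjusted p = 0.0499), compared with −0.15 (adjusted p = 0.376) over all libraries, and the range over the alternative fits was an adjusted p of 0.0499 to 0.969. Rgmb ranged from 7.75 to 9.53 TPM in pLV-Control and from 6.92 to 9.31 TPM in pLV-SEMA6A.

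A ratio of genes within a library does not change when all TPM of that library are multiplied by the same factor. It can change under quantile normalization. The ratio of Efnb2 to its receptor Ephb4 was 2.31 ± 0.05 in pLV-Control and 3.89 ± 0.13 in pLV-SEMA6A (SD, n = 3 each). Epha2 over its ligand Efna1 was 5.76 ± 0.46 in pLV-Control and 7.85 ± 0.16 in pLV-SEMA6A. Ntn1 over Ntn4 was 0.377 ± 0.01 in pLV-Control and 0.827 ± 0.13 in pLV-SEMA6A. In each of these 3 pairs both genes already differed without overlap, in opposite directions. The libraries of the groups therefore could not overlap in these ratios, and that adds nothing to the values of the single genes. Unc5b over Neo1, also computed, did overlap, with up to 0.776 in pLV-Control and from 0.776 to 0.827 in pLV-SEMA6A. The pairs were chosen after their values were seen, and the ratios are given as a description.

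**Figure D4:**
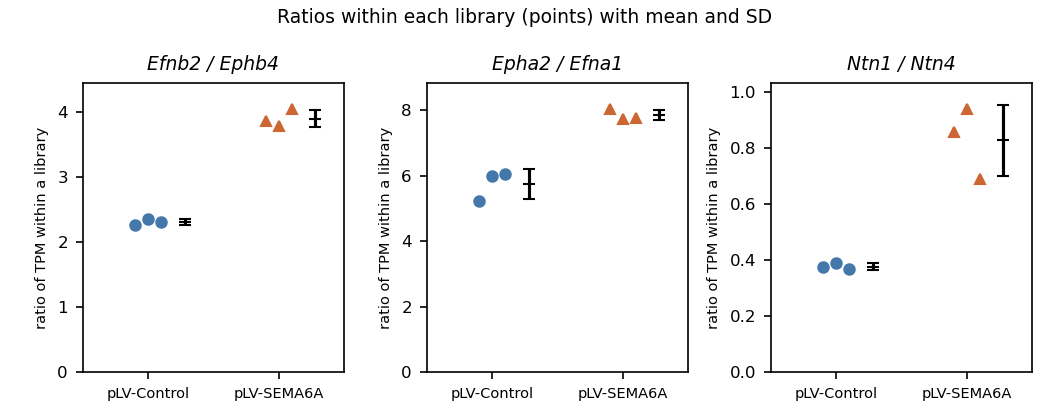
Ratio of TPM within each library for Efnb2 to Ephb4, Epha2 to Efna1 and Ntn1 to Ntn4, with circles for pLV-Control, triangles for pLV-SEMA6A and a bar for the mean and SD (n = 3 each). Each ratio is higher in every pLV-SEMA6A library, with means of 3.89, 7.85 and 0.827 against 2.31, 5.76 and 0.377.

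Other genes of these pathways were counted over a list of 82, namely family members not among the 36 genes, proteins that relay Eph, ephrin, Robo, netrin and RGM signals, the proteases that shed ephrins and receptors, and small GTPases with their kinases. Of these, 58 were tested, of which 15 rose and 18 fell, and 2 were higher and 4 lower DEGs, shares of 56.9% and 10.3% compared with 47.6% and 15.9% of all tested genes. Their median log2 fold change was 0.011. Centring each library on its median gave 4 higher and 2 lower DEGs. Of the family members not among the 36, only Flrt2, Ntn3 and Ntng2 reached the limit. Flrt2, a ligand of Unc5 receptors, fell from 11.5 ± 0.48 to 9.22 ± 0.17 TPM (SD, n = 3 each), with a log2 fold change of −0.29.

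**Figure D5:**
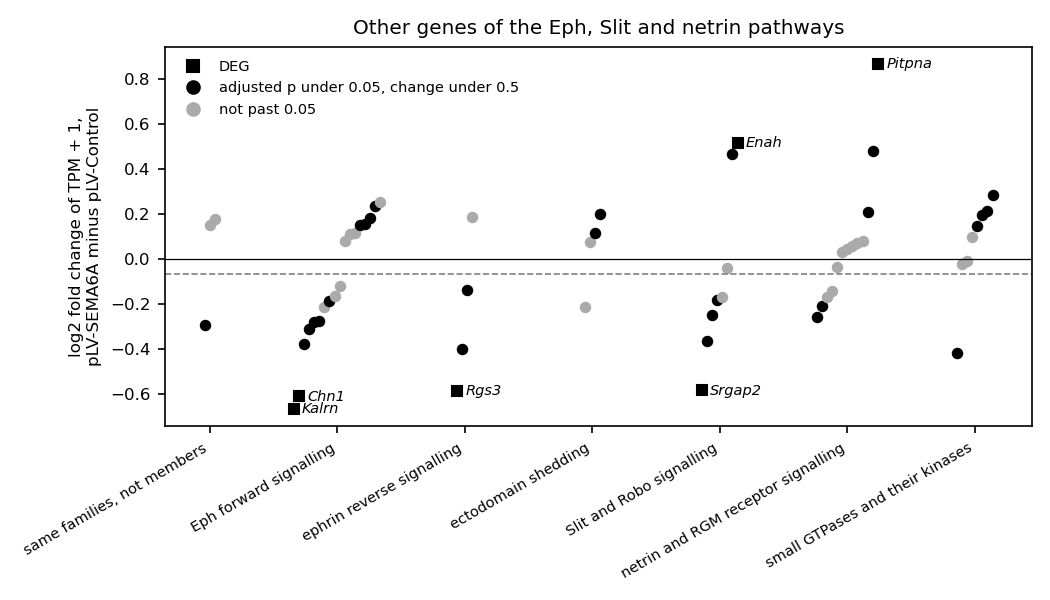
log2 fold change of TPM + 1 (pLV-SEMA6A minus pLV-Control) of the 58 tested pathway genes by role, as named squares for DEGs and circles for the others, black where the adjusted p was under 0.05, with a dashed line at the median of all genes (−0.064). Pitpna (0.86) and Enah (0.51) are the higher DEGs, and Kalrn, Chn1, Rgs3 and Srgap2 the lower ones (−0.58 to −0.67).

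The largest difference in that list was in Pitpna, a phosphatidylinositol transfer protein that binds netrin receptors. It rose from 55.3 ± 0.34 to 102 ± 3.96 TPM (SD, n = 3 each), with a log2 fold change of 0.86 (SE 0.04, adjusted p = 1.3e-05). Enah, an Ena/VASP protein that extends actin filaments and binds Robo, rose from 47.4 ± 3.09 to 68.1 ± 0.68 TPM (SD, n = 3 each), with a log2 fold change of 0.51 (adjusted p = 0.000354). In both genes the groups did not overlap. Srgap2, a GTPase-activating protein of the Slit and Robo pathway, fell from 27.98 ± 2.33 to 18.35 ± 1.33 TPM (SD, n = 3 each), with a log2 fold change of −0.58 (adjusted p = 0.00144).

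Kalrn, an exchange factor of small GTPases used by EphB receptors, fell by 0.67 on the log2 scale (adjusted p = 0.00290). Chn1, a Rac GTPase-activating protein downstream of Eph receptors, fell by 0.61 (adjusted p = 0.0160), and Rgs3, which relays signals of B-class ephrins, fell by 0.58 (adjusted p = 0.00201). Their libraries did not overlap between the groups. The directions of the 6 DEGs held in each alternative fit. After median centring Rgs3 and Srgap2 (both −0.49) stayed short of 0.5, and after quantile normalization Kalrn and Rgs3 (both −0.48) did, while Chn1 had an adjusted p of 0.0511. Quantile normalization gave 4 higher and 1 lower DEGs in the list. Chn1 passed the test in 11 of 13 alternative fits, with an adjusted p of up to 0.0525, and the log2 fold change of Enah was 0.48 at its lowest.

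The most abundant genes of the roles moved less than the DEGs of the list. Cfl1, which encodes the actin-severing protein cofilin, rose from 569 ± 8.16 to 695 ± 23.8 TPM (SD, n = 3 each), with a log2 fold change of 0.29. Ptpn11, a phosphatase, rose by 0.18 on the log2 scale. Sdcbp, which encodes syntenin, a scaffold that binds B-class ephrins, fell by 0.14, and after median centring by 0.042 with an adjusted p of 0.385. Vasp (log2 fold change −0.040, adjusted p = 0.352) and Maged1 (−0.032, adjusted p = 0.476) did not pass the test.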

How the data were processed

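Poly-A-selected mRNA of 3 pLV-Control and 3 pLV-SEMA6A libraries was sequenced by Illumina. The table that the authors deposited gives TPM per library, which summed to between 977400 and 986444, and the mean TPM of each group, which was not used. Per the labels, the build was mm39 and the tools named are Bowtie2, HISAT and RSEM, with no version or role. That the unit is TPM was taken from the values. The design provided for counts, and its test for normalized values was used because the table holds TPM.

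TPM were compared as log2(TPM + 1) in limma 3.58.1 (R 4.3.3) with a mean-variance trend and a single term for group, over 12510 genes, with Benjamini-Hochberg adjustment. The count model of the study was not run, since it needs reads. The threshold for DEGs follows the supplement's paragraph on enrichment. The fit was tested on simulated data. TPM gives no depth, so the 3 libraries of a group set the precision. Alternatives were a pseudocount of 0.1, no filter or a minimum of 5 TPM, median centring, quantile normalization, the replicate block, limma without trend, other minimum fold changes and leaving out each library.

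All 36 members are named, and of the 82 pathway genes the DEGs without overlap (at most 10, of which there were 6) and the most abundant gene of each role, of which 1 is not reported here. Members and lists were chosen with earlier results of these data known. All 36 identifiers occur in GENCODE M21, from which positions and shared 31-base stretches were taken. Promoters are from RefSeq (GRCm38.p6). Protein sequences were not used here.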

Additional observations from a re-analysis of the deposited data

How the results depend on the processing

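Over all genes, the members and the pathway list there were 1987, 2 and 6 DEGs. The minimum fold change moved these counts most. With no minimum they were 5959, 9 and 33, and with a minimum of 1 they were 385, 0 and 0 by limma, with 0 members and 0 pathway genes past 1 at an unadjusted p under 0.05. The members gave 1 DEG with a minimum of 5 TPM, which removes Epha1, and 1 after median centring, where Ntn4 stayed below 0.5. Quantile normalization kept the count at 2 but replaced Ntn4 (−0.40) by Ntn1 (0.52), and Efna4 was a further DEG with a pseudocount of 0.1 (−0.54) and without pLV-Control replicate 2 (−0.52). With no filter on low values 3 of 33 members were DEGs (9.09%), compared with 8.07% of all genes in that fit. The added one was Ephb2 (0.55), higher, with every library below 1 TPM. Leaving out each library gave 1900 to 1975, 2 to 3 and 5 to 8 DEGs. Epha1, Ntn4, Epha2 and Efnb2 kept their direction and an adjusted p under 0.05 in each alternative that tested them, while Efna1, Efna4, Ephb4, Slit2 and Unc5b each lost it in some (2, 9, 7, 2 and 5 fits). Direction turned in genes that did not pass the test: Rgmb (0.021 after median centring and 0.078 after quantile normalization, −0.16 to 0.035 leaving out each library), Efna5 (0.019) and Rgma (0.0074) after quantile normalization, and Neo1 (−0.040 to 0.049) and Efna3 (−0.097 to 0.27) leaving out each library. The cause was not tested. With the replicate block there were 1924, 2 and 6 DEGs, 1875 of the first shared with the fit without it, and Ephb4 (adjusted p = 0.0562), Efna4 (0.0890) and Unc5b (0.0704) no longer passed in limma. Same-numbered libraries deviated from their group means with correlations of −0.08 to −0.023, and 0 of 6 libraries correlated best with their own number, so the number was not taken as a pairing. TPM keeps no depth, so how far low genes such as the Robo receptors are limited by reads cannot be stated.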

Other observations

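Some of the guidance genes lie beside each other. On GRCm38, Efna1, Efna3 and Efna4 occupy 66.3 kb of chromosome 3 on the minus strand, with 32757 bases between Efna1 and Efna3 and 10425 bases between Efna3 and Efna4. Their mean TPM in pLV-Control were 24.1 ± 1.97, 1.27 ± 0.12 and 3.37 ± 0.58 (SD, n = 3 each), and their log2 fold changes were −0.28, 0.09 and −0.41, of which that of Efna3 did not pass the test. Robo4 and Robo3 lie 554 bases apart on chromosome 9, on opposite strands, and both were close to 0 in every library.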
